A study of Mus musculus with 2 samples.

Results

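The genes described here are 10 genes of the cytotoxic programme of natural killer (NK) cells and effector T cells, read in RNA from sorted aortic macrophages of mice labelled ApoE-/-. They are the granzymes Gzma, Gzmb, Gzmk and Gzmm, the pore-forming Prf1, the granule gene Nkg7, the cytokine Ifng, the transcription factors Eomes and Tbx21, and the receptor Ncr1. They were taken by name from a table of 54532 genes, and each name matched 1 row. The study compared dyslipidemic mice with phlegm-dampness retention (PDR) syndrome and mice with spleen and kidney Yang deficiency (SKYD) syndrome, which are categories of traditional Chinese medicine. All mice were male ApoE-/- mice on a C57BL/6J background that were 6 weeks old by the labels, a genotype in which the lipoprotein gene Apoe is knocked out. The PDR mice received a high-fat diet for 4 weeks. The SKYD mice received propylthiouracil, which blocks the making of thyroid hormone, by gavage for 4 weeks at a daily 10 mg/kg, and then a high-fat diet for 2 weeks. Cells of digested aortas were sorted on F4/80 and CD11b, and the cells of 5 mice were pooled into 1 library for each group. Syndrome, drug, length of diet and age at sampling therefore cannot be told apart, and no difference below has a replicate check.

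Cytotoxic lymphocytes kill target cells by releasing granules. Perforin, the product of Prf1, opens pores in the membrane of the target, and granzymes, which are serine proteases, pass through and cut proteins inside the cell. The same lymphocytes secrete interferon-gamma, which activates macrophages, and in atherosclerotic vessels they are found beside macrophages. T-bet, encoded by Tbx21, and eomesodermin, encoded by Eomes, are related T-box proteins that direct this programme. Of the proteins used for the sort, CD11b is carried by macrophages and also by mature NK cells, whereas F4/80 marks macrophages and is not a usual NK cell protein. How far the sort removed NK cells was not tested, and markers of several other cell types were read in both libraries.

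The reads behind the deposited values summed to 23086889 for PDR and 25427863 for SKYD. The sorting genes were present in both, with 6639 and 7551 reads for Adgre1, which encodes F4/80, and 1043 and 1803 for Itgam, which encodes CD11b, in PDR and SKYD. The 11 macrophage markers took 3.37% of all reads in PDR and 6.28% in SKYD, most of it on the lysozyme gene Lyz2, and without Lyz2 the other 10 took 0.397% and 0.929%. Apoe had 17336 reads in PDR and 3618 in SKYD, more than any of the 10 genes in either library, which goes against an absence of its RNA under the genotype label, and reads per gene do not show from which exons they came. Markers of other cells were also present, as set out beside the results they move with.

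All 10 cytotoxic genes had a higher FPKM (fragments per kilobase of gene, scaled to a size set for each library) in the PDR library than in the SKYD library. The ratio of FPKM ran from 2.23 for Gzma to 28.3 for Tbx21, and Gzmm had no read in SKYD. Every one of the 10 ratios was above 2, while the same held for 15.0% of the 16703 genes with at least 10 reads. The lower 95% limit of the ratio, which covers counting error only, was above 2 for 9 of the 10, and Eomes was the exception. On the scale of log2(FPKM + 1), which damps low genes, 8 of the 10 reached a mean FPKM of 1, the limit set for a gene to be compared, and all 8 were more than 2-fold higher in PDR, against 7.38% of the 10399 genes compared. None was more than 2-fold higher in SKYD, against 6.91% of genes. Of the 8, Gzmm, Prf1 and Tbx21 reached the limit only through their PDR level, so their difference could only lie in this direction. Among the genes of the lists below that passed 2-fold, the same holds for Serpinb9b, Klrg1, Klra8 and Cma1, and in the direction of SKYD for Siglech and Klk1. Over the 5 genes with an FPKM of at least 1 in both libraries, all 5 were more than 2-fold higher in PDR, against 5.88% of such genes. The median difference of the 8 was 1.88, or 1.83 with Gzmm set at the 3 reads that a count of 0 allows, and that of all 10399 genes was -0.0035. In bulk RNA, fewer cells of a type and less RNA per cell cannot be told apart.

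**Figure D1:**
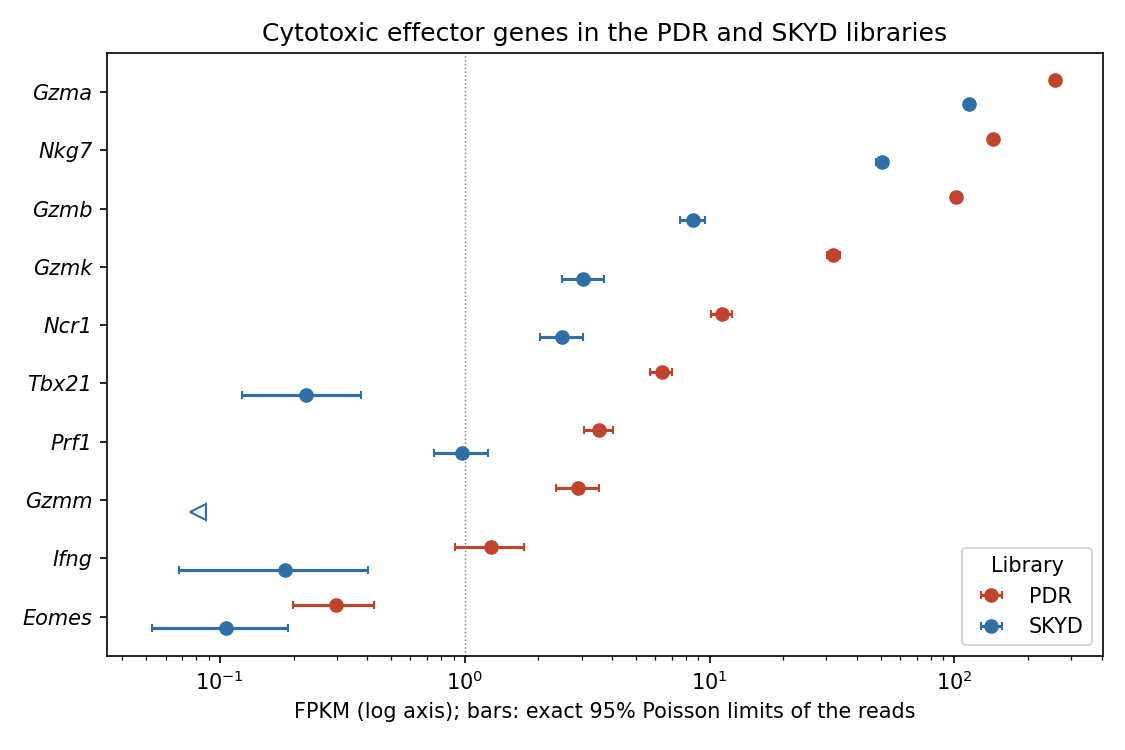
FPKM of each gene (log axis) for PDR and SKYD, with exact 95% Poisson limits of the reads as bars; the open triangle is the level that 3 reads would give for Gzmm, which had 0 reads in SKYD, and the dotted line is an FPKM of 1. Each PDR point lies to the right of its SKYD point, from Gzma at 256 against 115 to Eomes at 0.297 against 0.106, and only for Eomes do the bars come close to each other.

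Of all reads in PDR, 14753 or 0.0639% fell on the 10 genes (95% CI 0.0629 to 0.0649, exact binomial), and in SKYD 4650 or 0.0183% (95% CI 0.0178 to 0.0188). The granzymes supplied most of these. The 4 granzyme genes had 10616 reads in PDR and 3303 in SKYD, which is 3.54 times the share of reads in PDR.

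Granzyme A, a protease that cuts after basic residues, was the most abundant of the 10. Gzma (ENSMUSG00000023132, chromosome 13 from 113093825 to 113100981 of GRCm38) had an FPKM of 256 in PDR, from 6055 reads, and 115 in SKYD, from 2891 reads. It was high in both libraries, above 98.9% of protein-coding genes in PDR and 97.2% in SKYD, and had the lowest ratio of the 10, 2.23 (95% CI 2.13 to 2.33). Granzyme B, which cuts after aspartate and starts the caspase cascade, differed far more. Gzmb (ENSMUSG00000015437, chromosome 14 from 56258838 to 56262260) had an FPKM of 101 in PDR, from 3419 reads, and 8.53 in SKYD, from 306 reads. Its ratio was 11.9 (95% CI 10.6 to 13.4), a difference in log2(FPKM + 1) of 3.43 (95% CI 3.27 to 3.58), the largest of the 10 on that scale. The FPKM of Gzma was 2.53 times that of Gzmb in PDR and 13.5 times in SKYD.

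Granzyme K, a further protease that cuts after basic residues, stood close to granzyme B in its ratio. Gzmk (ENSMUSG00000042385, chromosome 13 from 113171608 to 113225908) had an FPKM of 31.9 in PDR, from 1042 reads, and 3.05 in SKYD, from 106 reads. The ratio was 10.5 (95% CI 8.56 to 12.9), and its interval overlapped that of Gzmb. Gzma and Gzmk, which lie on the same chromosome, thus had unlike ratios. Granzyme M, which cuts after methionine and leucine and is best known from NK cells, had reads in PDR only. Gzmm (ENSMUSG00000054206, chromosome 10 from 79689020 to 79695261) had an FPKM of 2.89 in PDR, from 100 reads, and 0 reads in SKYD, which allows up to 3 reads or an FPKM of 0.0815. With those 3 reads in SKYD it was 35.5-fold higher in PDR, and the exact lower 95% limit of the ratio was 28.3.

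The other granzymes of the mouse stand beside Gzmb on chromosome 14. Of these 6 genes, Gzmd, Gzme, Gzmf, Gzmg and Gzmn had 0 reads in both libraries, and Gzmc had 48 reads in PDR and 23 in SKYD. The Gzmc difference in log2(FPKM + 1) was 0.70 (95% CI 0.25 to 1.11), within 2-fold on that scale, and its ratio of FPKM was 2.22 (95% CI 1.32 to 3.83), near that of Gzma. No stretch of 100 bases of a Gzma, Gzmb, Gzmk or Gzmm transcript occurs in a transcript of another gene of GENCODE, so these genes share no whole read of that length.

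Perforin was below Gzma, Gzmb and Gzmk in both libraries. Prf1 (ENSMUSG00000037202, chromosome 10 from 61297833 to 61304680) had an FPKM of 3.53 in PDR, from 214 reads, and 0.975 in SKYD, from 63 reads. The ratio was 3.61 (95% CI 2.72 to 4.87). The FPKM of Gzmb was 28.7 times that of Prf1 in PDR and 8.74 times in SKYD, whereas the FPKM of Gzma was 72.7 times that of Prf1 in PDR and 118 times in SKYD. Nkg7 encodes a membrane protein of the cytotoxic granule that takes part in its release. Nkg7 (ENSMUSG00000004612, chromosome 7 from 43437073 to 43438249) had an FPKM of 143 in PDR, from 3077 reads, and 50.6 in SKYD, from 1157 reads. Its ratio was 2.83 (95% CI 2.64 to 3.03), which put it with Gzma among the abundant genes of small ratio.

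Interferon-gamma itself was read at a low level. Ifng (ENSMUSG00000055170, chromosome 10 from 118441046 to 118445892) had an FPKM of 1.28 in PDR, from 39 reads, and 0.185 in SKYD, from 6 reads. The ratio was 6.92 with a wide interval (95% CI 2.91 to 20.0), and the mean FPKM was under 1. In GENCODE, 12.4% of the stretches of 100 bases in Ifng transcripts also occur in Gm49751, a gene model on the same strand that shares 336 exon bases with Ifng. Gm49751 has no row in the table used here.

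Other steps of the interferon-gamma axis were read as well. Of 7 cytokines that drive Ifng expression, 5 reached the limit of FPKM, and Il12a, Il12b and Il27 were more than 2-fold higher in PDR. Il12a and Il12b reached the limit only through their PDR level, which fixes their direction. Il12a, the smaller subunit of interleukin 12, had 179 reads in PDR and 34 in SKYD, a difference in log2(FPKM + 1) of 1.61 (95% CI 1.32 to 1.87). Il18 had 1101 and 1403 reads, with a difference of -0.25. Of 7 receptor genes for such cytokines, 4 reached the limit, and on the scale of log2(FPKM + 1) only Il2rb was past 2-fold. By the ratio of FPKM, 4 of the 7 were above 2, with Il2rb at 2.82, Il12rb1 at 2.62, Il18rap at 2.61 and Il18r1 at 2.01. Il2rb is the receptor chain for interleukins 2 and 15 and had 670 reads in PDR and 253 in SKYD, a difference of 1.19 (95% CI 1.03 to 1.35).

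The receptor for interferon-gamma went both ways. The ligand-binding chain Ifngr1 had a difference of -0.55 and the chain Ifngr2 of 0.60. Of the kinases bound to the receptor, Jak1 had a difference of -0.10 and Jak2 of 0.31. Of 8 genes that interferon-gamma induces in macrophages, 6 reached the limit. Of these, Cxcl9, Cxcl10, Irf1, Ciita and Gbp2 passed 2-fold with more in PDR, and the median over the 6 was 2.04. The exception was Socs1, an inhibitor of the pathway, with a difference of -0.99. Cxcl9, a chemokine that draws cells with the receptor CXCR3, had an FPKM of 36.7 in PDR and 6.70 in SKYD. The study selected Ifng, Irf1, Ciita, Gbp2, Il12b and Il12rb1 on these libraries, so their direction is not independent evidence. The study also reported a raised cellular response to interferon-beta in PDR, and which interferon these differences follow was not tested. The part of B cells, whose markers were higher in PDR, was not tested either.

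Among the transcription factors, Tbx21 had the largest ratio of FPKM that could be computed. Tbx21 (ENSMUSG00000001444, chromosome 11 from 97098071 to 97115331) had an FPKM of 6.37 in PDR, from 372 reads, and 0.225 in SKYD, from 14 reads. The ratio was 28.3 (95% CI 16.6 to 52.2). Its relative Eomes was low in both libraries. Eomes (ENSMUSG00000032446, chromosome 9 from 118478212 to 118486132) had an FPKM of 0.297 in PDR, from 29 reads, and 0.106 in SKYD, from 11 reads, a ratio of 2.81 (95% CI 1.36 to 6.22). Tbx21 stood at 21.4 times the FPKM of Eomes in PDR and 2.13 times in SKYD. The intervals of their ratios do not overlap. Eomes shares 118 exon bases with Gm33460, a gene model on the opposite strand that had 0 reads in both libraries.

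Other transcription factors of effector lymphocytes went both ways. Of 10 such genes, 7 reached the limit, of which 3 were higher and 4 lower in PDR, with a median of -0.20. None of the 7 was more than 2-fold higher in PDR on the scale of log2(FPKM + 1), and Nfil3, which NK cells need for their development and which macrophages also express, was more than 2-fold lower, with 601 reads in PDR and 1570 in SKYD. Id2, which restrains other lineages in NK cells and is widely expressed in myeloid cells, had 13139 reads in PDR and 26092 in SKYD, a difference of -0.90. By the ratio of FPKM with no pseudocount, Prdm1, which encodes Blimp-1 and was below the limit, stood at 3.28 (95% CI 2.25 to 4.86) from 117 reads in PDR and 38 in SKYD, and Stat4, which carries the signal of interleukin 12, at 2.04.

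**Figure D2:**
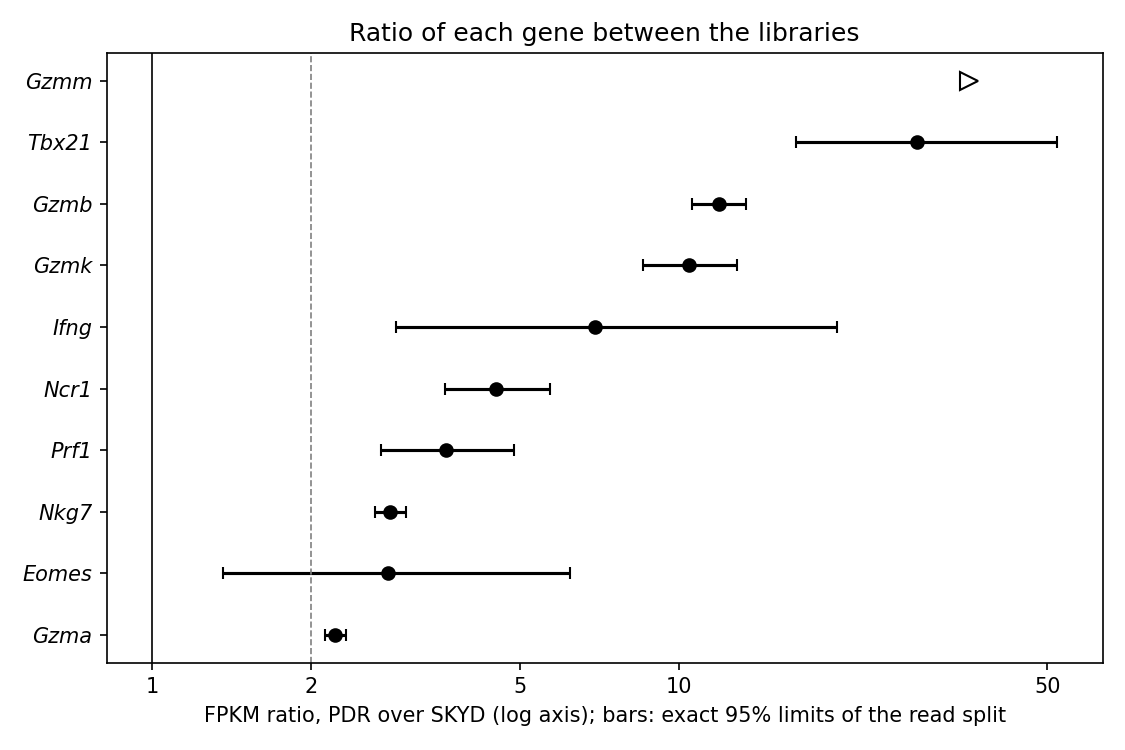
Ratio of FPKM, PDR over SKYD (log axis), with exact 95% limits of how the reads of a gene split between the libraries; the open triangle is the lower bound of 35.5 for Gzmm, the solid line is a ratio of 1 and the dashed line a ratio of 2. Tbx21, Gzmb and Gzmk lie apart from Gzma and Nkg7, and only the bar of Eomes crosses 2.

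Since all 10 genes were higher in PDR, the sequence before their start sites was read from the RefSeq promoters of GRCm38.p6, in which all 10 were found. Letters bound by T-box proteins (GGTGTGA) and by RUNX proteins (TGTGGT), which take part in the same programme, were searched on both strands in the 250 bases before each start. Both hold GGT, so a match to one can share bases with a match to the other. TGTGGT or its reverse was in the window of 6 of the 10 genes, against 14.0% of the 32851 promoters, and GGTGTGA or its reverse in 2 of the 10, against 3.33%. Letters of AP-1 (TGANTCA) were in 1 of the 10, against 6.75%. A match is a description of letters and not a site of binding. The windows of 4 genes are printed 5′ to 3′ on the strand of the gene, with matches to the T-box and RUNX letters in capitals, because they hold both T-box matches and both windows with 2 RUNX matches.
Gzmb, chr14:56262335-56262584, minus strand: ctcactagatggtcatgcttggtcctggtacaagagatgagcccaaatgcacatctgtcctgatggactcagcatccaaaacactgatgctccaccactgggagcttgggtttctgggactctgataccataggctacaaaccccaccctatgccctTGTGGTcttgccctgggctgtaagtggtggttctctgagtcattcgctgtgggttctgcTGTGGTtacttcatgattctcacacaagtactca
Gzmk, chr13:113180966-113181215, minus strand: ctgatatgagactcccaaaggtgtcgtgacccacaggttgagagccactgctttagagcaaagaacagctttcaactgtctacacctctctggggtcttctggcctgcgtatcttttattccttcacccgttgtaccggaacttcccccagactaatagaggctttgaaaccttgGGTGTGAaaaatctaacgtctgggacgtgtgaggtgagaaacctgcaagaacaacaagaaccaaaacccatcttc
Nkg7, chr7:43436888-43437137, plus strand: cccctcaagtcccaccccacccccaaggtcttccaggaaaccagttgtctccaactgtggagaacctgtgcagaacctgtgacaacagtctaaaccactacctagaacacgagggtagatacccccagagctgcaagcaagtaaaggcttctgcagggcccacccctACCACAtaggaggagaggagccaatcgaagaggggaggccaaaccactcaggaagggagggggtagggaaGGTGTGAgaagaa
Ncr1, chr7:4337474-4337723, plus strand: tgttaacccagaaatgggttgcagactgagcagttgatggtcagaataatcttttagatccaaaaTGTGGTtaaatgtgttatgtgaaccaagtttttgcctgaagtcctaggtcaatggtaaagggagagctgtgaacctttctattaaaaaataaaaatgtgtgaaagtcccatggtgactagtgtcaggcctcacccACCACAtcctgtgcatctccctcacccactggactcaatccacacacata
The RefSeq start of Gzmk lies 44943 bases inside the outer end of the deposited gene, and that of Gzmb lies 74 bases outside it. That of Nkg7 lies 65 bases inside the deposited gene. Both T-box matches, before the RefSeq starts of Gzmk and Nkg7, therefore lie within the deposited genes. The windows of Gzmb, Gzmk, Nkg7 and Ncr1 belong to genes with ratios from 2.83 to 11.9.

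Ncr1 encodes NKp46, an activating receptor found on NK cells and related innate lymphocytes. Ncr1 (ENSMUSG00000062524, chromosome 7 from 4337724 to 4345164) had an FPKM of 11.2 in PDR, from 406 reads, and 2.49 in SKYD, from 96 reads. The ratio was 4.50 (95% CI 3.59 to 5.68). A list of 7 further NK cell markers was read in both libraries, and 4 of the 7 passed 2-fold with more in PDR, with a median of 1.34. Klrg1, a receptor of mature NK cells and effector T cells, had 573 reads in PDR and 25 in SKYD, a difference of 3.42. Klrk1, the receptor NKG2D, had a difference of 1.39 and Klrc1 of 1.90. The markers did not all lie on one side, since Klrd1 had 631 reads in PDR and 1117 in SKYD, a difference of -0.71. The other 6 were higher in PDR. Among them Klrb1c, which encodes NK1.1, had 319 and 243 reads, a difference of 0.38. The 7 markers took 0.0194% of reads in PDR and 0.00953% in SKYD.

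The partner chains through which such receptors signal were listed together with an adaptor and some further NK cell receptors. These genes were mostly lower in PDR, and macrophages express several of them. Of 8 genes, 6 were lower in PDR and none was more than 2-fold higher on the scale of log2(FPKM + 1), with a median of -0.30, and by the ratio of FPKM Cd160 stood at 2.16. Tyrobp and Fcer1g had differences of -0.58 and -0.45. Cd247, the zeta chain of the T cell receptor complex and of NKp46, had 758 reads in PDR and 3344 in SKYD, a difference of -1.89 (95% CI -1.99 to -1.79), opposite to that of Ncr1.

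The order of the 10 genes by FPKM was alike at the top and differed lower down. In both libraries the order began with Gzma, Nkg7, Gzmb, Gzmk and Ncr1. In PDR, Tbx21, Prf1, Gzmm, Ifng and Eomes followed, and in SKYD, Prf1, Tbx21, Ifng, Eomes and Gzmm. In PDR, all neighbours had separate 95% intervals except Prf1 and Gzmm. In SKYD, Gzmk and Ncr1 did not differ beyond counting error, nor did neighbours among Tbx21, Ifng, Eomes and Gzmm. The make-up of the reads also differed. Gzma held 41.0% of the reads on the 10 genes in PDR (95% CI 40.2 to 41.8) and 62.2% in SKYD (95% CI 60.8 to 63.6), and Gzmb held 23.2% and 6.58%. The share of Nkg7 was 20.9% in PDR and 24.9% in SKYD, and that of Prf1, 1.45% and 1.35%, had overlapping intervals.

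**Figure D3:**
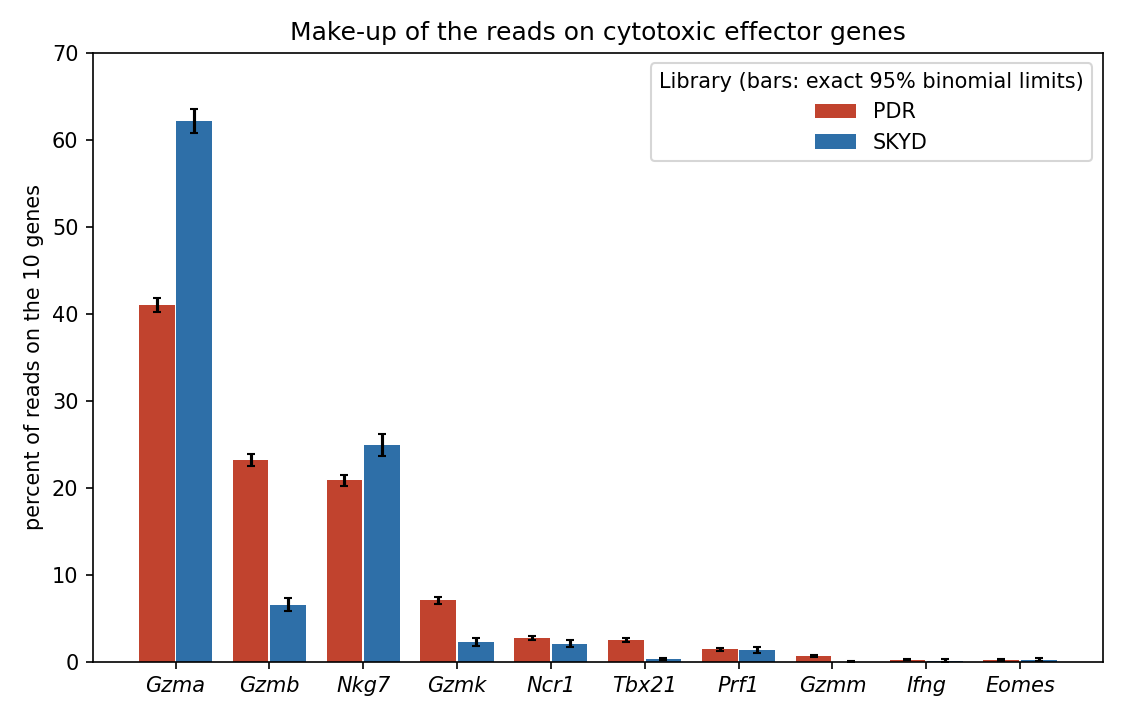
Percent of the reads on the 10 genes that fell on each gene, for PDR and SKYD, with exact 95% binomial limits as bars; reads are not divided by gene length, so bars are compared between libraries and not between genes. Gzma fills 41.0% in PDR and 62.2% in SKYD, while Gzmb, Gzmk and Tbx21 have a larger share in PDR.

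Genes that load, mature and release the granules are also used by macrophages, and went both ways. Of 9 such genes, 8 reached the limit and their median was 0.26. Ctsc, which encodes cathepsin C and activates granzymes by trimming them, had 28714 reads in PDR and 14015 in SKYD, a difference of 1.12 (95% CI 1.09 to 1.15). Srgn, the proteoglycan that holds granzymes in the granule, had 32404 and 88201 reads, a difference of -1.35 (95% CI -1.37 to -1.34). These were the only 2 past 2-fold. Ctsh and Lamp1 had differences of 0.21 and -0.07.

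Of 4 serpin genes listed with the inhibitors of granzymes, 2 passed 2-fold with more in PDR and 1 with less. Whether each of the 4 inhibits a granzyme was not tested. Serpinb9, which blocks granzyme B, had 2827 reads in PDR and 614 in SKYD, a difference of 2.14 (95% CI 2.03 to 2.26), and its relative Serpinb9b had 273 and 6 reads. Serpinb6a was more than 2-fold lower in PDR, with 1830 and 4225 reads, and Serpinb6b was within 2-fold, with 816 and 440 reads, a difference of 0.90. The death ligands, which kill through receptors instead of granules, were higher in PDR in all 3 genes that reached the limit. Fasl, the Fas ligand, had 164 reads in PDR and 55 in SKYD, a difference of 1.11 (95% CI 0.83 to 1.37). Tnf and Lta had differences of 1.71 and 1.74, and Tnfsf10, at 73 and 51 reads, was below the limit.

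Chemokines and chemokine receptors of effector lymphocytes included some of the largest differences on these lists. Of 9 genes, 4 passed 2-fold with more in PDR and none with less, with a median of 0.65. Cxcr3, the receptor for Cxcl9 and Cxcl10 and a known T-bet target, had 1776 reads in PDR and 147 in SKYD, a difference of 3.34 (95% CI 3.15 to 3.54). Cxcr6 had 1234 and 197 reads, a difference of 2.47 (95% CI 2.29 to 2.66). Ccl5 and Ccl4, which activated lymphocytes secrete and which the study also selected on these libraries, had differences of 1.69 and 1.68. Ccl3, which macrophages also make, had 518 and 580 reads.

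**Figure D4:**
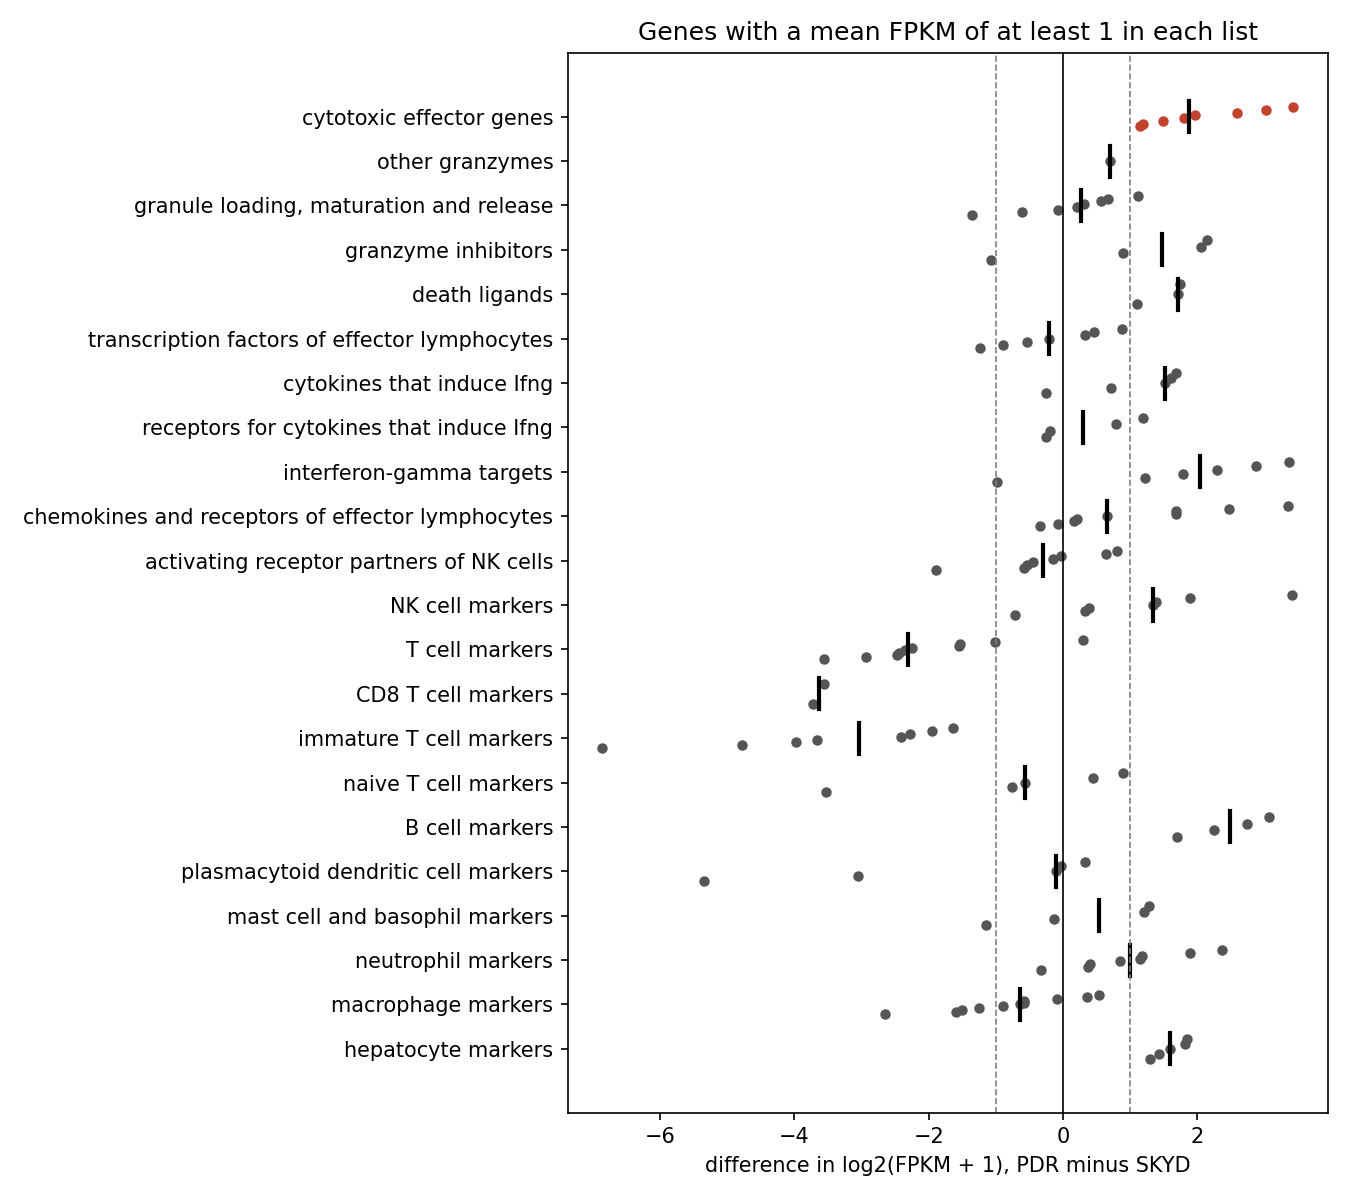
Difference in log2(FPKM + 1), PDR minus SKYD, of each compared gene among the cytotoxic genes and in the plotted pathway and cell type lists; each point is a gene, the black bar is the median of the list, the dashed lines mark 2-fold and the small vertical offsets only separate points. The 8 cytotoxic genes lie at 1.15 to 3.43, on the side of the NK cell and B cell markers and opposite to the T cell and immature T cell markers.

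Markers of T cells lay on the opposite side from the cytotoxic genes. Of 10 T cell markers, 9 were more than 2-fold lower in PDR, with a median of -2.30, and their share of reads was 0.0880% in PDR and 0.422% in SKYD. Both CD8 genes were lower, with 1383 reads of Cd8b1 in PDR and 19828 in SKYD. Only Cd2, which lymphocytes other than T cells also carry, was higher in PDR, with a difference of 0.30. Markers of immature T cells were lower too, with a median of -3.04. All 8 were more than 2-fold lower in PDR, but 7 of the 8, all except Cd4, reached the limit only through their SKYD level, which fixes their direction. Dntt, which adds bases to antigen receptor genes, had 39 reads in PDR and 10953 in SKYD. The naive T cell gene Tcf7 had 475 and 6501 reads, while Ccr7 had a difference of 0.89. The part of these cells in the levels of the cytotoxic genes was not tested.

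Set against the reads on the T cell markers, the 10 genes together had 726 reads per 1000 marker reads in PDR and 43.3 in SKYD, a ratio of 16.7 (95% CI 16.2 to 17.4). Every gene was higher in PDR on this measure, from 11.1 for Gzma (95% CI 10.5 to 11.6) to 140 for Tbx21 (95% CI 82.5 to 259). Each of the 10 had more reads in PDR, while the T cell markers had 20325 there and 107302 in SKYD, which fixed the direction. In SKYD, 29472 and 34513 of the marker reads fell on Trbc1 and Trbc2, and markers of immature T cells were higher there. The measure is therefore not expression per effector T cell. With 3 reads set in SKYD, Gzmm was 176-fold higher, with a lower 95% limit of 140. Against the 7 NK cell markers the ratio of the 10 genes together was 1.72 (95% CI 1.62 to 1.82), and the genes separated. Gzma had a ratio of 1.13 (95% CI 1.06 to 1.21), Nkg7 of 1.44 and Prf1 of 1.84, whereas Gzmb had 6.05 (95% CI 5.32 to 6.89), Gzmk 5.32 (95% CI 4.32 to 6.60) and Tbx21 14.4 (95% CI 8.44 to 26.6). Ncr1 had 2.29 (95% CI 1.82 to 2.91) and Ifng 3.52 (95% CI 1.48 to 10.2). With 3 reads set in SKYD, Gzmm was 18.0-fold higher, with a lower 95% limit of 14.4. For Eomes the interval held 1 (ratio 1.43, 95% CI 0.690 to 3.17). Set against Klrb1c alone, a reference chosen after the data were seen, the ratio of the 10 together was 2.42 and that of Gzma 1.60. The values against the list rest on Klrd1, the 1 marker that was lower in PDR, which held 14.1% of the marker reads in PDR and 46.1% in SKYD. With Klrd1 left out, also after the data were seen, the ratio of the 10 together was 1.08 (95% CI 1.003 to 1.157), and those of Gzma and Nkg7 turned to 0.711 (95% CI 0.658 to 0.769) and 0.903 (95% CI 0.823 to 0.992). Eomes stood at 0.895 (95% CI 0.433 to 1.99) and Prf1 at 1.15 (95% CI 0.861 to 1.56). Gzmb, Gzmk and Tbx21 remained above 1, at 3.79 (95% CI 3.32 to 4.35), 3.34 (95% CI 2.70 to 4.16) and 9.02 (95% CI 5.29 to 16.7), as did Ncr1 at 1.44 (95% CI 1.14 to 1.83). Gzmm did too, at 11.3 with 3 reads set in SKYD and a lower 95% limit of 9.02. Ifng stood at 2.21 with an interval that held 1 (95% CI 0.925 to 6.39). Against the macrophage markers, the 10 genes had 19.0 reads per 1000 marker reads in PDR and 2.91 in SKYD, a reference that is mostly Lyz2, and without Lyz2 they had 161 and 19.7. These references also had fewer reads in PDR, so this direction was fixed as well. The 11 macrophage markers had a median difference of -0.64, and Cd14, C1qa, C1qb and C1qc were more than 2-fold lower in PDR.

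**Figure D5:**
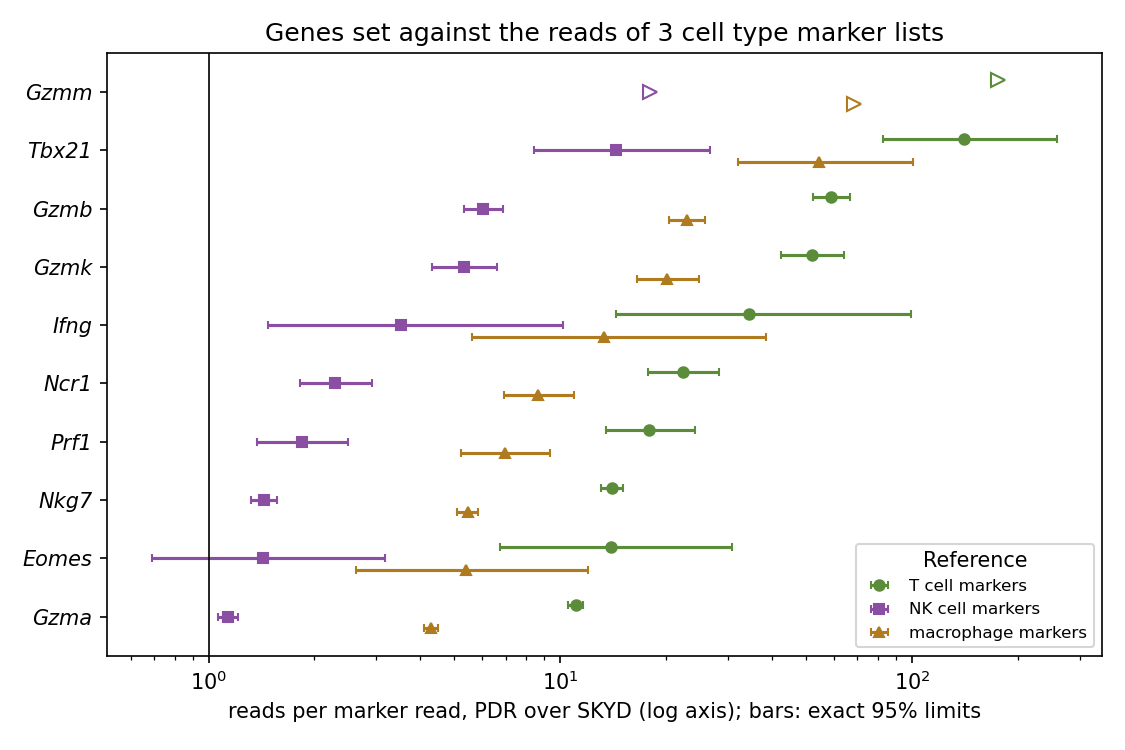
Reads of each gene per read on the T cell, NK cell or macrophage markers, as the ratio of PDR over SKYD (log axis), with exact 95% limits for counting error; open triangles are lower bounds for Gzmm and the line marks a ratio of 1. Against the 7 NK cell markers Gzma lies at 1.13, and at 0.711 if Klrd1 is left out (not drawn), and Gzmb at 6.05, while against T cell markers all genes lie at 11.1 or above. The T cell and macrophage markers had fewer reads in PDR and every gene had more, which fixes the side of those points.

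Some of the 10 genes are also known from other cells, whose markers were read as well. Gzmb is made by plasmacytoid dendritic cells, and of their 5 markers Siglech had 39 reads in PDR and 964 in SKYD and Klk1 had 0 and 1067, so both were more than 2-fold lower in PDR, and the other 3 were within 2-fold. Mast cells and basophils can also hold Gzmb. Of their 7 markers, Mcpt8 had 144 and 48 reads and Cma1 had 66 and 15, both more than 2-fold higher in PDR, Cpa3 had 205 and 530 and was more than 2-fold lower, and Mcpt4 had 0 reads in both. In total these mast cell and basophil markers had 537 reads in PDR and 712 in SKYD, against 3419 and 306 for Gzmb. B cell and hepatocyte markers, which do not belong to cytotoxic cells, were higher in PDR as the 10 genes were. All 4 B cell markers that reached the limit passed 2-fold, with a median of 2.49, and all 5 hepatocyte markers did too, with a median of 1.60. B cell markers took 0.353% of reads in PDR and 0.0667% in SKYD, and hepatocyte markers 0.199% and 0.0614%. Their part in the difference of the cytotoxic genes was not tested.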

How the data were processed

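The PDR and SKYD groups each gave 1 library, made from macrophages pooled over mice. The authors filtered and aligned the reads with TopHat2 2.0.9 and Bowtie2 2.0.6, counted them per gene with HTSeq 0.6.1 and deposited FPKM with gene lengths; these tool versions and the build mm9 are named in the submitters' processing notes. The deposited positions equal those of GENCODE M21 on GRCm38 for 98.3% of 54409 shared genes and for all 10 genes reported. Whether counting used strand is not given in the sources used here. Columns outside the 2 libraries hold annotation only.

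Reads were recovered from the deposited FPKM alone, as FPKM times gene length divided by what 1 read adds in that library. The result was whole within 0.001 for 100% of genes above 0 in both libraries. The library size implied by FPKM was 2.3488e+07 in PDR, above its reads on genes, and 2.49936e+07 in SKYD, below them. FPKM was therefore not scaled to the reads on genes alone. A count of 0 allows up to 3 reads, which is 1.3e-05% of reads in PDR and 1.18e-05% in SKYD. Differences are log2(FPKM + 1), PDR minus SKYD, for genes whose FPKM averaged 1 or more, and ratios of FPKM use no pseudocount. The 95% limits are Clopper-Pearson limits of the split of the reads of a gene or of a share, Poisson limits of a level, and conditional limits of an odds ratio for reads per marker read. They cover counting error only, since reads without molecular identifiers are not independent molecules. With 1 library a group, there is no p-value, no SD and no pairing of samples.

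The genes and lists were chosen with earlier results of these data known. All 10 genes are named. From each list, up to 3 genes with the highest mean FPKM and 2 with the largest difference could be named, and any further gene was picked with its values in view. A single gene of the lists, with what rests on it, is not reported here. The steps were tested on simulated data. Tables were handled in pandas 2.3.3 and numpy 2.4.6 under Python 3.11.15, limits came from scipy 1.17.1, and figures were drawn with matplotlib 3.10.9.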

Additional observations from a re-analysis of the deposited data

How the results depend on the processing

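No paired analysis was possible because each group has 1 library. The genes were compared under 8 alternatives, which gave 74 differences, and all 74 were higher in PDR. Changed pseudocounts and filters cannot turn the sign of a difference, and centring moves all genes alike. The count is therefore no check of direction. Of the 74, 47 were counted as within the counting interval and 27 as outside it. The 27 include Gzmm without a filter, whose value of 1.96 equals the main value and was counted as outside only by rounding. With 0 reads in SKYD, the upper limit for Gzmm equals its own value, so the small shifts of centring also counted as outside. With a mean FPKM of at least 5, 5 genes were left and all 5 were more than 2-fold higher in PDR, though Gzmk and Ncr1 reached that mean only through PDR. Without a filter, 8 of 10 were, since log2(FPKM + 1) damps Ifng and Eomes. Of the other alternatives, rescaling to TPM left 9 of 9, reads scaled to the library total with no pseudocount gave 10 of 10, and the other pseudocounts and both centrings gave 8 of 8. None was more than 2-fold higher in SKYD under any of the 8. The share of all genes past 2-fold was not computed under these alternatives, so their counts cannot be set against it. That share was 7.38% on the main scale and 15.0% for ratios of FPKM with no pseudocount. The median difference was 2.74 and 2.77 with pseudocounts of 0.1 and 0.01, 1.64 without a filter and 2.53 for reads scaled to the total, where Gzmm has no finite ratio. The share of reads in PDR was 0.0719% of reads on protein-coding genes and 0.0695% without immunoglobulin and T cell receptor genes, and in SKYD 0.0195% and 0.0189%. Against Cd3e alone the 10 genes per marker read had a ratio of 18.5, and against macrophage markers 6.50 (8.18 without Lyz2, added after the data were seen), in place of 16.7 for T cell markers. All of these references had fewer reads in PDR, so the direction of these ratios was fixed. In place of 1.72 for NK cell markers the ratio was, by references added after the data were seen, 2.42 for Klrb1c alone, 1.08 without Klrd1, 2.23 without Klrk1, 1.87 without Klrc1 and 1.95 without Klrg1, and 1.66 to 1.74 without each of the other 3. Depth limits Gzmm most, with 0 reads in SKYD and a difference of 1.96, 4.90 and 8.18 with pseudocounts of 1, 0.1 and 0.01, and then Ifng, Eomes and Tbx21, with 6, 11 and 14 reads, and the spread between mice cannot be measured.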

Other observations

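Serine proteases of other granules were also read. Elane, the elastase of early neutrophil granules, had 788 reads in PDR and 143 in SKYD, a difference in log2(FPKM + 1) of 2.36 (95% CI 2.14 to 2.59), and Mpo, the peroxidase of the same granules, had 467 and 72 reads, a difference of 1.89, and reached a mean FPKM of 1 only through PDR. The abundant neutrophil genes S100a8 and S100a9 differed less, at 0.37 and 0.40, and Retnlg was lower in PDR, at -0.32. Over 8 neutrophil markers, 4 passed 2-fold with more in PDR and 0 with less, with a median of 0.998.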
